A study of Mus musculus with 6 samples.

Results

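Venous endothelial cells (ECs) of the mouse lung at embryonic day (E) 18.5 were chosen from single-cell RNA libraries by their counts of unique molecular identifiers (UMIs), each of which stands for 1 captured RNA molecule. A cell had to hold at least 3 UMIs over the endothelial genes Pecam1, Cdh5 and Cldn5, at most 2 over the collagen genes Col1a1 and Col3a1, at least 1 of Nr2f2 and at least 2 of Vwf. It could hold at most 1 UMI over the arterial genes Gja4 and Stmn2, none of Prox1, Cytl1 or Gkn3, under 5 of the lymphatic chemokine Ccl21a, and at most 1 over the cycling genes Mki67 and Top2a. The rule found 84 cells among 13628 ECs at E18.5. These ECs came from 26967 cells that passed the quality filters, and the series holds 63659 deposited barcodes in 6 libraries.

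The study followed pulmonary artery growth with a reporter in which DsRed is knocked into Cxcl12, the gene of an arterial chemokine. At E18.5 it has 1 library of reporter-positive, CD31-positive cells sorted from Cxcl12 DsRed/+ lungs after removal of EpCAM- and CD45-positive cells, and 2 libraries described as whole lungs. The whole-lung libraries are labelled as a heterozygous control, Cxcl12 DsRed/+, and as a homozygous null, Cxcl12 DsRed/DsRed. Each condition is 1 library made from pooled lungs, every library including the control carries at least 1 DsRed allele, and the null is a germline mutation of all cells. The sort was set to keep cells with DsRed signal. Whether the Cxcl12 promoter was active in each sorted cell was not tested. The venous cells numbered 19 in the sorted library, 45 in the library labelled control and 20 in the library labelled null. With 1 library per condition no difference could be tested, so levels are given with exact 95% Poisson intervals that cover counting error only.

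Pulmonary veins drain the capillary bed of the lung into the left atrium. Venous identity rests on Nr2f2, a nuclear receptor that represses Notch-driven arterial genes, and on the receptor Ephb4, whose ligand Efnb2 marks arteries. Vwf, the clotting protein von Willebrand factor, is stored in Weibel-Palade bodies together with P-selectin and is more abundant in large vessels than in lung capillaries.

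The 3 libraries held between 65056925 and 103857395 UMIs. They shared between 20 and 140 cell barcodes per pair, and no venous cell was among them. Cxcl12 itself went against the whole-lung labels. Over the ECs that were not venous, Cxcl12 stood at 1234 counts per 1000000 UMIs (CPM) in the sorted library, 4.6 CPM in the library labelled control and 546 CPM in the library labelled null. The names of the deposited files also give the 2 genotypes the other way round. Xist, a sex-linked gene that is no measure of the Cxcl12 genotype, was at 0 UMIs in the ECs of the library labelled control. It stood at 244 and 682 CPM in those of the sorted library and the library labelled null. The part of sex in differences between libraries was not tested. Every direction given below between the whole-lung libraries follows the labels as deposited.

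The venous share of ECs was lowest in the sorted library. It was 0.209% in the sorted library (exact Clopper-Pearson 95% interval 0.126 to 0.326), 2.47% in the library labelled control (1.81 to 3.29) and 0.735% in the library labelled null (0.450 to 1.13). These intervals cover counting error only and say nothing of the spread between lungs of a condition. The shares depend on the arterial limit of the rule. Of 9083, 1824 and 2721 ECs in the sorted library and the libraries labelled control and null, 126, 75 and 69 met the Nr2f2 and Vwf minimums. The limit on Gja4 and Stmn2 left 22, 54 and 22 of them. The rule also needs UMIs of several genes and so depends on depth. Venous cells held a median of 8541, 8861 and 11670 UMIs in the sorted library and the libraries labelled control and null, against 5631, 7613 and 8392 UMIs in the other ECs. With every EC thinned to 2000 UMIs, a median of 6, 14 and 8 cells still passed, which gave 0.0696%, 0.845% and 0.317%. The order of the libraries was thus kept at equal depth, although the smallest and largest of the 10 draws were 0.551% and 1.10% for the library labelled control and 0.118% and 0.473% for the library labelled null. The order of the whole-lung libraries turned when the rule was applied to the authors' background-adjusted counts, where 8 venous cells (0.447%) were left in the library labelled control and 15 (0.543%) in the library labelled null. That adjustment kept 61.0% and 85.5% of the UMIs of these libraries.

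Genes outside the rule differed between cells far from the Vwf threshold, and not in 1 direction for the few cells next to it. Cells that met every other criterion but had no Vwf UMI numbered 113, 120 and 90 in the sorted library and the libraries labelled control and null, and 12, 8 and 2 cells had 1 Vwf UMI. Inside the rule, 2 cells per library had exactly 2 Vwf UMIs and the other 17, 43 and 18 had more. Car8 stood at 361, 211 and 243 CPM in the cells with 3 or more Vwf UMIs, and at 31.6, 12.5 and 16.6 CPM in those with none. Cpe stood at 236, 203 and 256 CPM in the cells with 3 or more, and at 1.22, 0.832 and 0 CPM in those with none. Cells that carried Nr2f2 without Vwf thus held less of both genes in each library. Next to the threshold the order differed. In the sorted library the cells with 1 Vwf UMI held 330 CPM of Ackr3 and 101 CPM of Car8, and the 2 cells with 2 Vwf UMIs held 58.6 and 0 CPM. In the library labelled control the cells with 1 Vwf UMI held 148 CPM of Ackr3 and 42.2 CPM of Car8, and those with 2 held none of either. In the library labelled null they held 26.8 and 53.5 CPM with 1 Vwf UMI, and 710 and 64.5 CPM with 2.

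For comparison, non-cycling ECs were gated as arterial (at least 3 UMIs over Gja4 and Stmn2), general capillary (at least 2 of Gpihbp1 and none of Car4), aerocyte (at least 2 of Car4) or lymphatic (Prox1 and at least 5 of Ccl21a), and epithelial cells by Epcam and Cdh1. These gates held 7930, 2315, 330 and 100 ECs over the 3 libraries, with 7 and 13 lymphatic cells in the libraries labelled control and null. The label was checked against 20 listed venous markers. Of these, 9 were abundant enough to be counted outside the rule, and 8 of these, Ackr3, Adgrg6, Car8, Cpe, Ephb4, Nrp2, Prss23 and Ptgs1, were over 2-fold higher in venous than in other ECs in all 3 libraries. Over all 3169 genes counted, 70 (2.21%) were so. Of the 8 markers, Ackr3 and Ephb4 alone reached 50 CPM in the other ECs of every library. The others passed the minimum through the venous cells in at least 1 library and had to be higher there, so the count is a description and no support for the label, and the same limit holds for the list counts that follow. Emcn, a sialomucin of veins and capillaries, was the exception at 797, 671 and 812 CPM in venous cells against 906, 1032 and 930 CPM in other ECs. Nr2f2 was also high in the lymphatic gate, at 344, 266 and 462 CPM against 390, 315 and 276 CPM in venous cells. Nr2f2 also reached 12.9, 62.8 and 47.4 CPM in the epithelial gate, and the authors' adjustment lowered its UMIs in the venous cells from 160 to 38 in the library labelled control and from 69 to 49 in the library labelled null. Vwf was adjusted from 576 to 545 and from 207 to 185 UMIs in the same cells.

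The 10 lymphatic markers, Prox1 and Ccl21a of the rule included, summed to 815, 1056 and 1112 CPM in venous cells and to 698, 547 and 519 CPM in other ECs, and 6, 5 and 7 of them were at 0 in venous cells. Of the 2 counted, Fgl2 was higher in all 3 libraries, where 2.21% of all genes were so, and Lyve1 gave most of the venous sum. Mmrn1, a defining lymphatic matrix gene, had 0, 2 and 0 UMIs in the venous cells of the sorted library and the libraries labelled control and null, and stood at 1512, 1177 and 1575 CPM in the lymphatic gate. Reln, Pdpn, Thy1 and Nts were at 0 UMIs in all 3 venous groups. Lyve1, a hyaluronan receptor best known from lymphatics, was present at 638, 820 and 880 CPM in venous cells, against 638, 468 and 441 CPM in the general capillary gate and 1775, 893 and 2204 CPM in the lymphatic gate. Its log2 ratios over the general capillary gate were 0.00, 0.81 and 1.00, and in the library labelled control its venous level lay near that of the lymphatic gate.

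Each venous group was next set against all other ECs of its own library. These comparisons used the counts that chose the cells, so they are descriptions with no test. Of 3169 genes with at least 50 CPM in venous or other ECs of each library, 70 (2.21%) were over 2-fold higher in venous cells in all 3 libraries and 110 (3.47%) were over 2-fold lower, with the genes of the rule left out. A gene could reach this minimum through venous cells alone, as Masp1, Plac8 and Car8 did, and had then to be higher there. Genes that reached it through other ECs alone had likewise to be lower in venous cells. The counts, their shares and the leading genes below carry this limit. Against the arterial gate the numbers were 80 higher (2.51%) and 124 lower (3.89%) of 3190, and against the general capillary gate 93 higher (3%) and 115 lower (3.71%) of 3096. Of the 70 higher genes 53 were also higher than in both gates, and of the 110 lower genes 61 were also lower than in both.

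**Figure D1:**
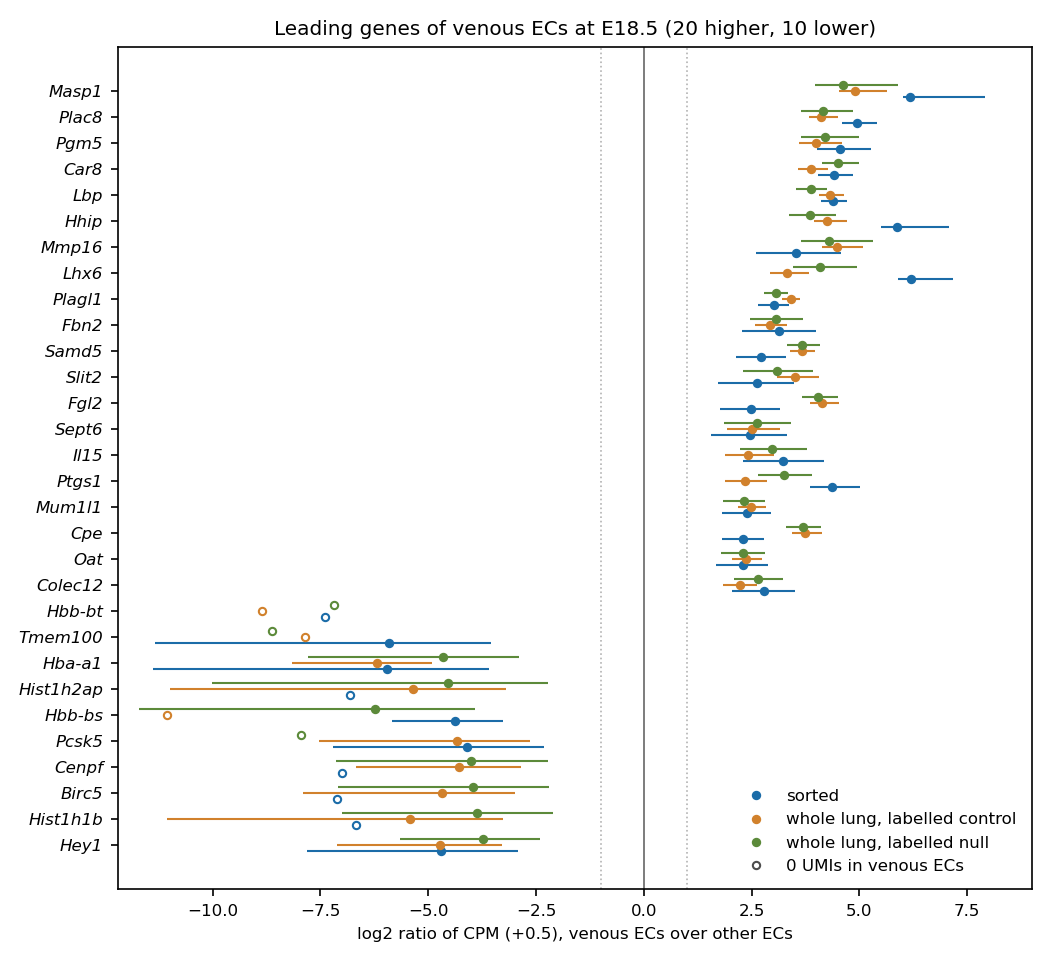
Log2 ratio of CPM (after adding 0.5 CPM) in venous over other ECs, per library, for the 20 genes with the largest smallest ratio and the 10 with the most negative largest ratio. Lines are exact 95% intervals of the raw ratio and cover counting error only, open circles mark 0 UMIs in venous ECs and have no lower limit, and dotted lines mark 2-fold. All 3 libraries sit at or above 2.22 for the higher genes and at or below -3.73 for the lower genes.

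Masp1, a serine protease of the lectin complement pathway (chromosome 16, 23449417 to 23520815, GRCm38), led the higher genes. It stood at 82.7, 112 and 52.0 CPM in venous cells of the sorted library and the libraries labelled control and null, and at 0.647, 3.30 and 1.64 CPM in other ECs. No Masp1 UMI was found in the aerocyte or lymphatic gates. Plac8, a small cysteine-rich protein, stood at 325, 228 and 112 CPM in venous cells and at most at 12.7 CPM in other ECs. Car8 (chromosome 4, 8143362 to 8239041), a carbonic anhydrase relative without enzyme activity that restrains the inositol trisphosphate receptor, stood at 325, 201 and 232 CPM against 14.7, 13.2 and 9.76 CPM. Car8 was also present in the epithelial gate, at 137, 34.9 and 44.6 CPM, and was lower in every endothelial gate than in venous cells. The venous and other-EC groups of these genes stood far apart in each library.

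Other leading genes encode secreted, matrix and developmental proteins. Hhip, the decoy receptor of hedgehog ligands, stood at 106, 177 and 136 CPM in venous cells and at 1.33, 8.79 and 8.90 CPM in other ECs. Slit2, the guidance ligand of Robo receptors, stood at 70.9, 96.4 and 60.0 CPM against 11.1, 8.02 and 6.65 CPM. Fbn2, a fetal microfibril protein, stood at 76.8, 151 and 104 CPM against 8.36, 19.4 and 12.1 CPM. Mmp16, a membrane-bound metalloproteinase, stood at 59.0, 128 and 64.0 CPM against 4.63, 5.25 and 2.79 CPM. In the library labelled control the authors' adjustment removed all 90 Hhip and all 49 Slit2 UMIs of the venous cells and left 63 of 65 for Mmp16, so the Hhip and Slit2 levels there rest on unadjusted counts.

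Lhx6 and Plagl1 were the leading transcription factors. Lhx6, a LIM homeobox factor, stood at 165, 108 and 76.0 CPM in venous cells and at 1.75, 10.4 and 4.04 CPM in other ECs. Plagl1, an imprinted zinc finger factor, stood at 396, 496 and 440 CPM against 48.6, 46.3 and 52.3 CPM, and it lay between 21.3 and 58.6 CPM in each of the other endothelial gates, so that venous cells alone stood out. Il15, a cytokine, stood at 65.0, 61.0 and 64.0 CPM against 6.54, 11.0 and 7.72 CPM, nearly the same level in each library.

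Several leading genes were shared with lymphatic ECs. Lbp, which binds bacterial lipopolysaccharide, stood at 602, 299 and 292 CPM in venous cells and at 821, 258 and 733 CPM in the lymphatic gate, against 28.2, 14.6 and 19.6 CPM in all other ECs. Fgl2, a prothrombinase of the fibrinogen family, stood at 112, 218 and 224 CPM in venous cells and at 1022, 352 and 1009 CPM in the lymphatic gate. Pgm5, a phosphoglucomutase relative at adherens junctions, stood at 148, 102 and 92.0 CPM in venous cells and at 99.7, 77.3 and 76.9 CPM in the lymphatic gate. Cpe, a carboxypeptidase that trims peptide hormones, stood at 213, 193 and 240 CPM in venous cells, 157, 68.7 and 149 CPM in the lymphatic gate, and at most 3.15 CPM in the general capillary gate. Masp1, Hhip and Mmp16, by contrast, were at 0 UMIs in the lymphatic gates of the sorted library and the library labelled control.

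The remaining leading genes were Samd5, Sept6, Mum1l1, Oat and Colec12, whose log2 ratios lay between 2.22 and 3.67 over the 3 libraries, and Ptgs1, described with the vasomotor genes. Oat lost all 83 venous UMIs to the authors' adjustment in the library labelled control and kept 26 of 35 in the library labelled null. Among the lower genes, the haemoglobins Hbb-bt, Hba-a1 and Hbb-bs led together with Tmem100, Pcsk5 and Hey1 and with the cycling genes Cenpf, Birc5, Hist1h2ap and Hist1h1b. The rule kept cycling cells out of the venous group and not out of the other ECs, so nothing is read from the lower level of cycling genes. Against the arterial gate, which also lacks cycling cells, the log2 ratios of Cenpf were -3.30, -0.17 and 0.12, those of Hist1h2ap -2.74, -0.30 and 0.23 and those of Birc5 -3.42, -1.70 and -0.26. Tmem100, a target of endothelial BMP receptor signalling, had 1 UMI in the venous cells of the sorted library and 0 UMIs in the other two, against 386, 115 and 195 CPM in other ECs. Against a floor of 3 UMIs per library it was at least 19.4-fold lower in the library labelled control and at least 16.2-fold lower in the library labelled null. Pcsk5, a proprotein convertase, had 2, 2 and 0 UMIs in venous cells and 211, 88.6 and 123 CPM in other ECs.

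Of the Cxcl12 system, venous cells held the receptor Ackr3 and little Cxcl12 or Cxcr4. Cxcl12 (chromosome 6, 117168535 to 117181367) had no UMI in the 19 sorted venous cells or in the 45 of the library labelled control, and 6 UMIs in 2 cells of the library labelled null (24.0 CPM). Against a floor of 3 UMIs, sorted venous cells were at least 69.7-fold below the 1234 CPM of their other ECs. The arterial gate held 1707, 17.1 and 1124 CPM and the general capillary gate 38.2, 0.163 and 21.6 CPM, so Cxcl12 was near the general capillary level in the library labelled null. In the library labelled control a difference from the 4.6 CPM of other ECs was not detectable, since the exact interval of 0 UMIs reaches 7.25 CPM. Cxcr4, the signalling receptor of Cxcl12, had 0, 1 and 2 UMIs in venous cells against 32.8, 52.2 and 63.2 CPM in other ECs. Ackr3 (chromosome 1, 90203980 to 90216751), the atypical receptor that binds and removes Cxcl12, stood at 443, 372 and 544 CPM in venous cells against 50.8, 92.6 and 82.3 CPM in other ECs. Ackr3 was next in the general capillary gate at 111, 106 and 127 CPM, then in the aerocyte gate at 83.3, 82.8 and 93.7 CPM, then in the arterial gate at 32.9, 68.3 and 52.9 CPM. The lymphatic gate came last, with 13.3, 0 and 0 CPM.

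Ackr3 was also found in most single venous cells. It had a UMI in 13 of 19, 40 of 45 and 20 of 20 venous cells, at median depths of 8541, 8861 and 11670 UMIs. In the epithelial gate, which should lack it, 5.56%, 1.43% and 2.65% of cells had an Ackr3 UMI at median depths of 19026, 14552 and 17477 UMIs. At 2000 UMIs per cell the shares for Ackr3 were 57.9%, 55.6% and 80.0% in venous cells and 8.34%, 15.7% and 13.4% in other ECs. The exact Clopper-Pearson intervals of the 3 venous shares were 33.5 to 79.7, 40.0 to 70.4 and 56.3 to 94.3%. They cover the counting of cells within 1 library each, and their overlap says nothing of the conditions.

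**Figure D2:**
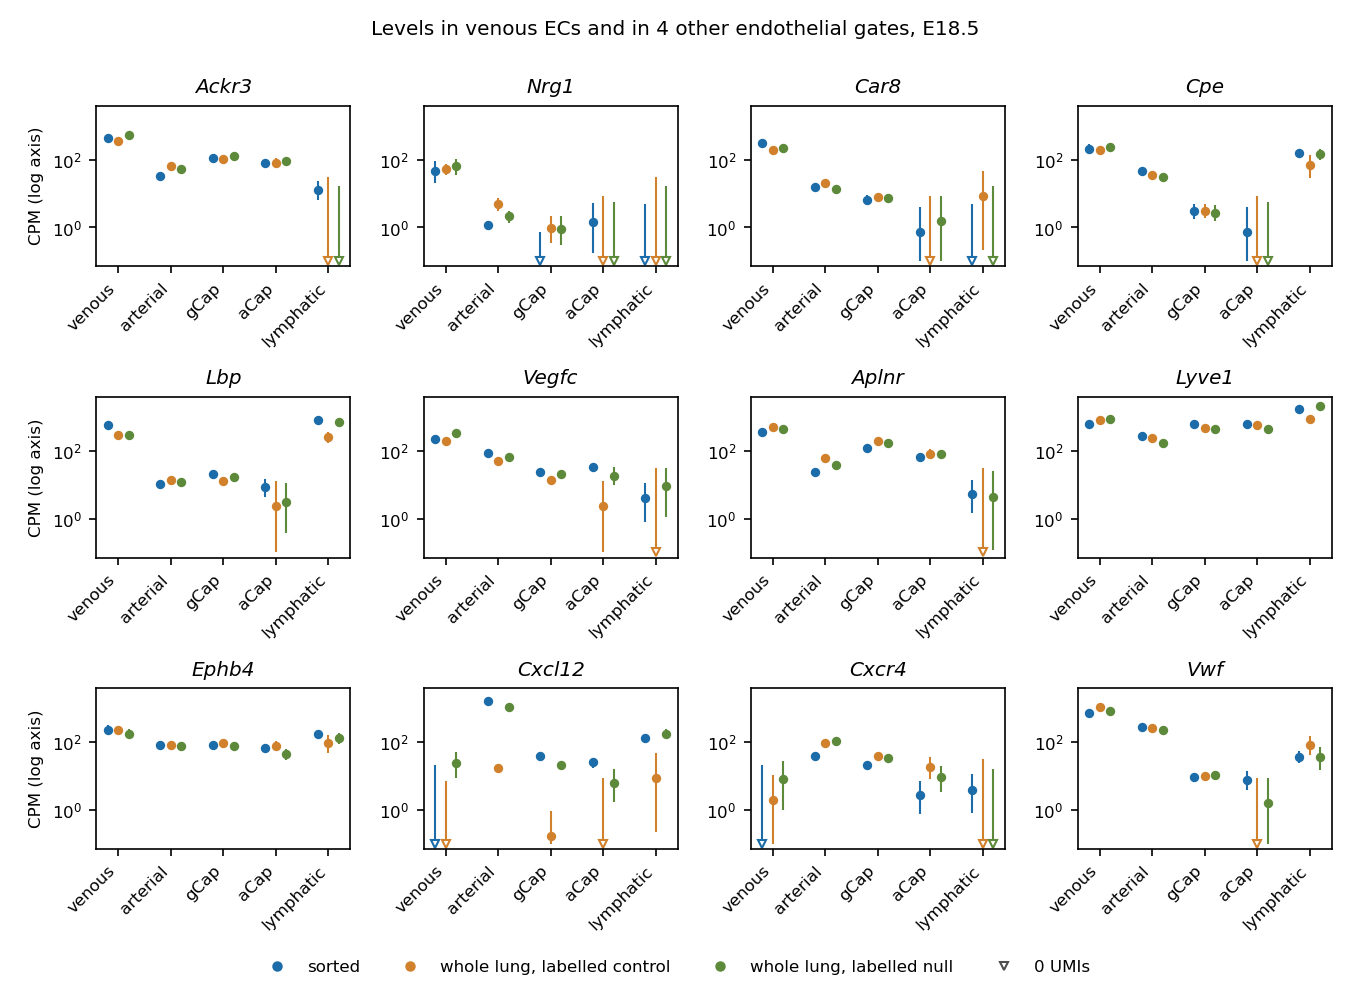
Levels of 12 genes in CPM (log axis) in venous ECs and in the arterial, general capillary (gCap), aerocyte (aCap) and lymphatic gates of each library, with exact 95% Poisson intervals, and open triangles at the foot of the axis for 0 UMIs. Ackr3, Nrg1, Car8, Vegfc and Aplnr are highest in venous ECs, Lbp and Lyve1 are also high in lymphatic ECs, Cxcl12 is at 0 UMIs in venous ECs of 2 libraries, and Vwf was used to choose the cells.

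Some of the listed venous and adhesion genes were sparse. Nrg1, a neuregulin growth factor of pulmonary veins, stood at 47.2, 53.1 and 64.0 CPM in venous cells and at 1.45, 2.18 and 1.68 CPM in other ECs, and was not counted because it missed 50 CPM in the sorted library. Nrg1 had a UMI in 6 of 19, 12 of 45 and 6 of 20 venous cells, in 0.519%, 0.899% and 0.889% of other ECs, and in 0 of 18 cells, 1.29% and 2.12% of the epithelial gate. Slc6a2, the noradrenaline transporter, had 12 UMIs (23.6 CPM) in the library labelled control and 0 and 1 UMIs in the venous cells of the sorted library and the library labelled null. Selp, P-selectin, had 6, 2 and 5 UMIs, and Ackr1, the chemokine-binding protein of venules, had 8, 1 and 2 UMIs. Sele, E-selectin, had 8 UMIs in the sorted venous cells and none in the others, and Vcam1 had 6, 6 and 0 UMIs. At 0 to 12 UMIs per library no order between libraries is read from these genes.

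Of 9 ephrin genes 4 were counted, with 1 higher and 2 lower, where 2.21% and 3.47% of all genes were higher and lower. Those shares stand beside every list count below, and with so few members no count is read as a result about its list. Ephb4 stood at 230, 232 and 180 CPM in venous cells against 85.2, 87.6 and 73.5 CPM in other ECs. Efnb2 was lower at 23.6, 45.2 and 76.0 CPM against 343, 199 and 222 CPM, and Efna1 was lower too. Efnb1, another ephrin ligand, had log2 ratios of 0.08, 0.50 and 0.03. Of 14 Notch pathway genes 6 were abundant enough, none was higher and 3 were lower. Dll4, the arterial Notch ligand, had 2, 1 and 4 UMIs in venous cells against 167, 111 and 107 CPM in other ECs. Hey1, a Notch target, had 2, 3 and 4 UMIs against 321, 170 and 219 CPM, and Notch4 had 4, 9 and 1 UMIs against 80.1, 70.9 and 65.2 CPM. Dll1, another Notch ligand, was too sparse to be counted and ran the other way, with 9, 16 and 8 UMIs and log2 ratios of 1.94, 1.41 and 1.51. Hes1 and Notch1 were closer, with log2 ratios between -0.90 and -0.40.

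Among arterial markers 8 of 20 were counted, with 5 lower and 1 higher, where 3.47% and 2.21% of all genes were lower and higher. Besides Efnb2, Dll4 and Hey1, these were Sox17, a SoxF factor at 195, 96.4 and 132 CPM against 864, 356 and 547 CPM, and the netrin receptor Unc5b at 23.6, 7.87 and 36.0 CPM against 117, 94.0 and 120 CPM. The exception was Vegfc, the lymphangiogenic growth factor. Vegfc stood at 224, 203 and 340 CPM in venous cells and at 68.6, 25.4 and 41.7 CPM in other ECs, and at 86.51, 49.99 and 67.47 CPM in the arterial gate. Gja5, an arterial connexin that the rule did not use, had 2, 0 and 2 UMIs in venous cells against 145, 155 and 193 CPM in the arterial gate. On those few UMIs its log2 ratios over the general capillary gate were 1.41, -2.91 and 0.66. The rule kept cells with arterial genes out of the venous group and not out of the other ECs. Nothing is therefore read from the lower level of arterial genes, here or above.

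Capillary genes were mixed. Of 10 general capillary markers 8 were counted, and Aplnr, the apelin receptor, was the only one over 2-fold higher in all 3 libraries, at 372, 503 and 452 CPM against 42.9, 149 and 90.6 CPM. Aplnr reached 125, 206 and 179 CPM in the general capillary gate itself. Kit, the stem cell factor receptor, was lower at 17.7, 43.3 and 32.0 CPM against 95.2, 121 and 104 CPM. Gpihbp1, which carries lipoprotein lipase across capillary walls, stood at 396, 319 and 208 CPM in venous cells against 446, 810 and 748 CPM in all other ECs. Plvap, the diaphragm protein of fenestrae and caveolae, stood at 1092, 883 and 884 CPM against 417, 558 and 439 CPM, past 2-fold in the sorted library and the library labelled null but not in the library labelled control. Of 10 aerocyte markers 6 were counted, with none higher and 4 lower, namely Emp2, Igfbp7, Prx and Tbx2. Car4, the aerocyte carbonic anhydrase, was at 0 UMIs in all 3 venous groups. The rule did not use Car4.

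Of 9 pan-endothelial genes counted outside the rule, none was higher and 1 was lower, and their median log2 ratios were -0.13, -0.27 and -0.19. Tie1, an endothelial receptor kinase, had log2 ratios of 0.06, 0.03 and -0.07. Cd34, a sialomucin of small vessels, was the lower gene at 183, 55.1 and 132 CPM against 585, 534 and 580 CPM.

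Of 17 Weibel-Palade and haemostasis genes 7 were counted, and Procr, the endothelial protein C receptor of larger vessels, was higher at 283, 240 and 160 CPM against 72.1, 48.1 and 47.8 CPM. Thbd, thrombomodulin, had log2 ratios of -0.10, 0.42 and 0.75. Rab27a, a GTPase of Weibel-Palade bodies, stood at 41.3, 49.2 and 44.0 CPM against 8.63, 11.2 and 8.83 CPM, under the level needed to be counted. Of 17 adhesion and chemokine genes 4 were counted, 2 were higher and none was lower, where 2.21% of all genes were higher. The other two, Icam2 and Cd200, stood below other ECs without passing 2-fold in all 3 libraries, Icam2 at 449, 452 and 600 CPM against 911, 731 and 836 CPM. Icam1, the leukocyte integrin ligand, stood at 378, 177 and 160 CPM against 87.5, 40.0 and 42.2 CPM. Il6st, the shared receptor of the interleukin 6 family, stood at 224, 122 and 108 CPM against 45.2, 48.9 and 36.9 CPM.

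Of 27 listed transcription factors, among them the rule gene Nr2f2, 16 were counted, with 1 higher and 3 lower, where 2.21% and 3.47% of all genes were so. Lhx6 and Plagl1 above were not on this list, nor was Hey1. Tshz2, a teashirt zinc finger factor, was higher at 331, 151 and 140 CPM against 29.5, 46.4 and 25.6 CPM. Sox17, Sox18 and Tbx3 were lower, and Tbx3 stood at 17.7, 55.1 and 56.0 CPM against 169, 191 and 200 CPM. Foxc1, a forkhead factor, had 6, 13 and 12 UMIs in venous cells, at log2 ratios of 2.41, 3.52 and 4.18, but was too sparse to be counted.

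Of 23 vessel matrix genes 12 were counted, with 1 higher and 2 lower, where 2.21% and 3.47% of all genes were so. The lower ones were the basement membrane collagens Col4a1 and Col4a2. Col4a1 stood at 348, 226 and 440 CPM in venous cells against 887, 1457 and 1312 CPM in other ECs, and Col4a2 stood at 242, 136 and 248 CPM against 552, 801 and 724 CPM. Fbln2, a fibulin of elastic vessels, was higher at 520, 313 and 320 CPM against 228, 73.8 and 105 CPM. Col18a1, a basement membrane collagen and the source of endostatin, stood at 278, 281 and 240 CPM against 121, 118 and 124 CPM and missed the 2-fold mark in the library labelled null, with a log2 ratio of 0.95. Eln and Fbln5, of elastic fibres, were lower than in other ECs in the sorted library and higher in both whole-lung libraries. The authors' adjustment removed most Eln UMIs from venous cells, leaving 0 of 305 in the library labelled control and 35 of 234 in the library labelled null, and its log2 ratio to other ECs turned to -8.67 and -1.20, so its higher level in the whole-lung libraries rests on unadjusted counts.

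Of 21 secreted signals 5 were counted: Vegfc was higher, and Pdgfb and Igfbp7 were lower. Pdgfb, the growth factor that recruits mural cells, stood at 35.4, 62.9 and 64.0 CPM against 214, 186 and 206 CPM. Of 14 vasomotor and prostaglandin genes 7 were counted. Ptgs1, a cyclooxygenase, was higher at 165, 84.6 and 100 CPM against 7.52, 16.2 and 10.1 CPM, although the epithelial gate held 119, 61.1 and 64.4 CPM, and the authors' adjustment left 4 of its 43 venous UMIs in the library labelled control and 19 of 25 in the library labelled null. Ace, angiotensin-converting enzyme, was lower at 82.7, 96.4 and 88.0 CPM against 558, 341 and 364 CPM. Edn1, endothelin 1, had log2 ratios of -0.87, -0.05 and -0.65.

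Cell cycle and early response genes were the remaining groups. The rule limited Mki67 and Top2a, and 2 of 7 counted cycle genes outside it, Birc5 and Cenpf, were lower. Of 13 immediate-early genes 11 were counted, and Atf3, a stress-responsive factor, was higher at 266, 118 and 184 CPM against 120, 48.6 and 36.4 CPM. With venous cells chosen again on the authors' adjusted counts, the mean log2 ratio of Atf3 was -0.087. The other members, Fos, Jun and Egr1 among them, missed 2-fold in at least 1 library. Over all 3169 genes the median log2 ratio was -0.07, -0.06 and -0.02.

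**Figure D3:**
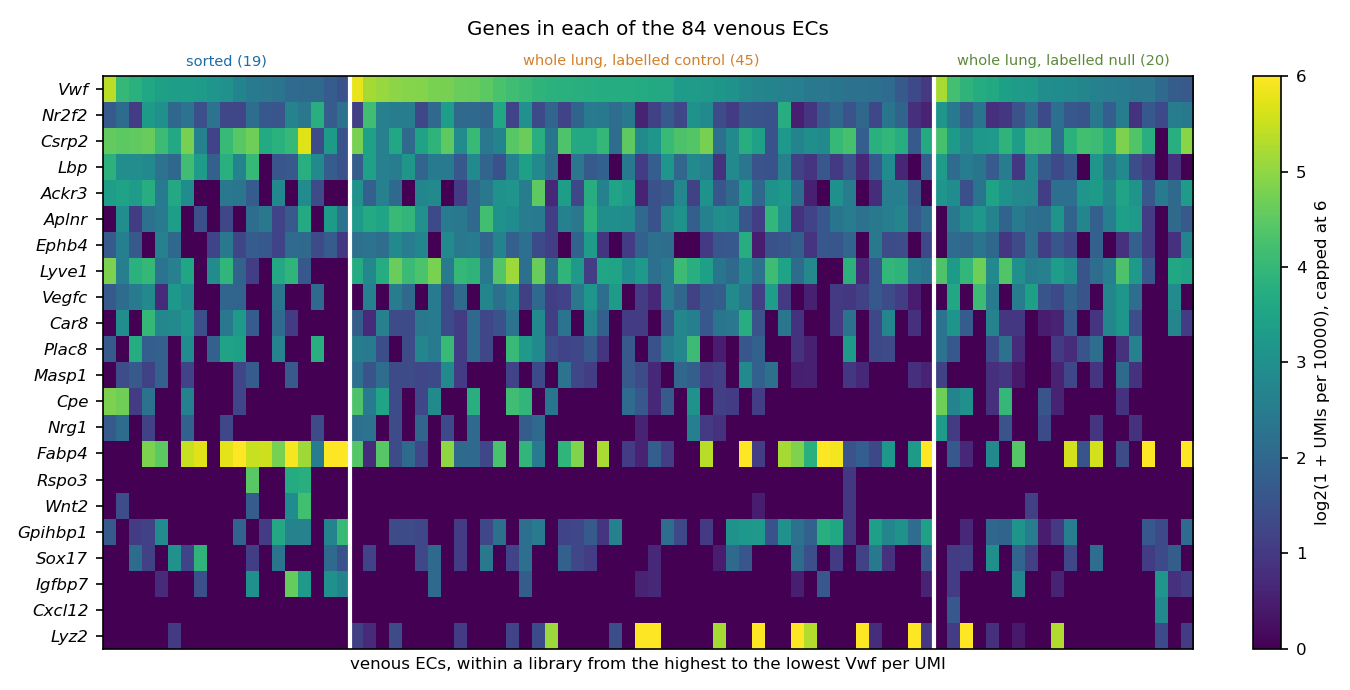
UMIs per 10000 in each of the 84 venous ECs (columns, in order of Vwf within a library) for 22 genes, as log2(1 + value) capped at 6. Ackr3, Aplnr and Csrp2 are found in most cells, Cpe and Nrg1 in a smaller set, and Fabp4 has its highest median in sorted cells. Lyz2 lies mostly in 9 cells labelled control and 2 cells labelled null.

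The 84 cells were not uniform. Of the 6 genes Ackr3, Car8, Cpe, Nrg1, Lbp and Plac8, at least 1 was detected in 83 of the 84 cells and at least 4 in 53. Lbp and Plac8 were taken from the leading genes of these same cells and the others from the venous list. The same counts are not given for other ECs, so they describe the venous cells and do not set them apart. At least 4 were detected in 10 of 19 sorted cells, 31 of 45 cells of the library labelled control and 12 of 20 of the library labelled null. Cpe was found in 32 cells and Nrg1 in 24, and 17 cells held both. The 7 cells with Nrg1 but without Cpe were 2, 3 and 2 from the sorted library and the libraries labelled control and null. Ackr3 and Car8 were found together in 57 cells, and 4 cells had Car8 alone of the pair. Cells holding Cpe had a Gpihbp1 UMI in 15 of 32 cases. The depth of these cells ranged from 2456 to 31302 UMIs, and absence of a gene from a cell was not read as lack of expression.

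Fabp4, a fatty acid carrier, varied between cells and libraries. It stood at 5527 CPM in sorted venous cells and at 1501 and 1713 CPM in those labelled control and null, against 410, 1044 and 621 CPM in other ECs. Its log2 ratios over the general capillary gate were 2.70, -0.23 and 0.22, so in the whole-lung libraries it lay near the general capillary level. Fabp4 was detected in 14 of 19, 34 of 45 and 10 of 20 venous cells, and the richest cell gave 32.16%, 20.97% and 32.01% of the UMIs. In the sorted library 301 and 188 of the 936 Fabp4 UMIs lay in 2 cells with 3 and 2 Vwf UMIs, which held no UMI of Ackr3, Car8, Cpe, Nrg1 or Plac8, and the other sorted cells held 0 to 80. Fabp5 stood at 1482, 1141 and 1609 CPM in venous cells against 238, 742 and 454 CPM. Rspo3, a Wnt enhancer, was found in 3 sorted venous cells with 41 UMIs, and the same 3 cells held Wnt2, which had 25 UMIs in 4 sorted cells. Rspo3 had 1 and 0 UMIs in the venous cells labelled control and null.

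Sorted venous cells were next set beside those of the library labelled control, both Cxcl12 DsRed/+ by their labels. Cxcl12 levels and file names went against the whole-lung labels, so it is not established that the genotypes match here. Of 710 genes with at least 200 CPM in either, 41 (5.77%) were over 2-fold higher in sorted cells and 39 (5.49%) over 2-fold lower. In the other ECs of the same libraries 35 of these genes, which were chosen by their level in venous cells, were higher and 27 lower. The 5 genes with the largest ratio upward were Hspa1a, Rspo3, Igfbp7, Aqp1 and Pdlim1. Hspa1a, a heat shock gene, stood at 472 against 3.93 CPM in venous cells and at 411 against 4.43 CPM in other ECs, so it differed alike in both populations. Igfbp7, a secreted binding protein, stood at 307 against 17.7 CPM in venous cells but at 723 against 861 CPM in other ECs. In the sorted library 5 cells with 2 to 4 Vwf UMIs held 21, 9, 8, 6 and 6 Igfbp7 UMIs, and each other sorted venous cell held 0 or 1. These 5 cells were the 3 that held Rspo3 and the 2 richest in Fabp4, and none of them held Cpe or Nrg1. The Rspo3 and Igfbp7 levels of the sorted group thus rest on the same few cells. Aqp1, a water channel, stood at 585 against 94.4 CPM in venous cells and at 331 against 182 CPM in other ECs. The 5 largest downward were Mt1, Ctss, Fcer1g, S100a8 and Lyz2, of which the last 4 are genes of myeloid cells. Lyz2 stood at 5.90 against 3483 CPM in venous cells and at 25.4 against 916 CPM in other ECs.

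The venous cells of the whole-lung libraries were compared last, and the number of genes past 2-fold depended on the processing, at 34 on the counts as deposited, 104 on the authors' adjusted counts of the same cells, 120 at 100 CPM, 142 after thinning and 350 with cells chosen again on the adjusted counts. Of 676 genes with at least 200 CPM in either, 15 (2.22%) were over 2-fold higher in venous cells labelled null and 19 (2.81%) over 2-fold lower, while 0 and 4 of them were so in other ECs. The 676 genes were chosen by their level in venous cells. These were 20 and 45 cells in the libraries labelled null and control, against 2701 and 1779 other ECs. The counts in venous cells and in other ECs are thus not alike and were not compared. The 5 largest upward were Fam183b, Tppp3, Elof1, Tuba1a and Tubb4b, and several rested on 1 cell. Fam183b, a gene of ciliated cells, had 62 UMIs from 1 cell, Tppp3 had 90.2% of its 61 UMIs in 1 cell, Elof1 81.7% of 71 and Tubb4b 70.4% of 135. Tuba1a, an alpha tubulin, stood at 636 against 161 CPM with 34.0% of its UMIs from the richest cell. The 5 largest downward were S100a8, Lpl, Apoe, Fcer1g and Lgals3, found in 11 to 28 of the 45 cells labelled control. There the richest cell gave 25.6%, 31.6%, 25.3%, 17.8% and 16.7% of their UMIs. S100a8 and Fcer1g are among the myeloid genes named above. Lyz2, another of those, stood at 912 against 3483 CPM, and 9 cells labelled control held 58 to 419 of its UMIs each. Whether the same 9 cells carried the 5 genes was not tested. All 5 turned to higher in the library labelled null with cells chosen again on the adjusted counts, and Fcer1g and Lgals3 also did so without ECs that held UMIs of other lineages. Apoe stood at 496 CPM in venous cells labelled null and 2254 CPM in those labelled control. Without ECs that held over 2 UMIs of markers of other lineages, 43 genes passed 2-fold and 5 of these were among the 34. Ackr3 stood at 544 against 372 CPM, a log2 ratio of 0.55 (0.22 to 0.88), on the unadjusted counts, and at a log2 ratio of 0.01 on the authors' adjusted counts of the same cells.

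**Figure D4:**
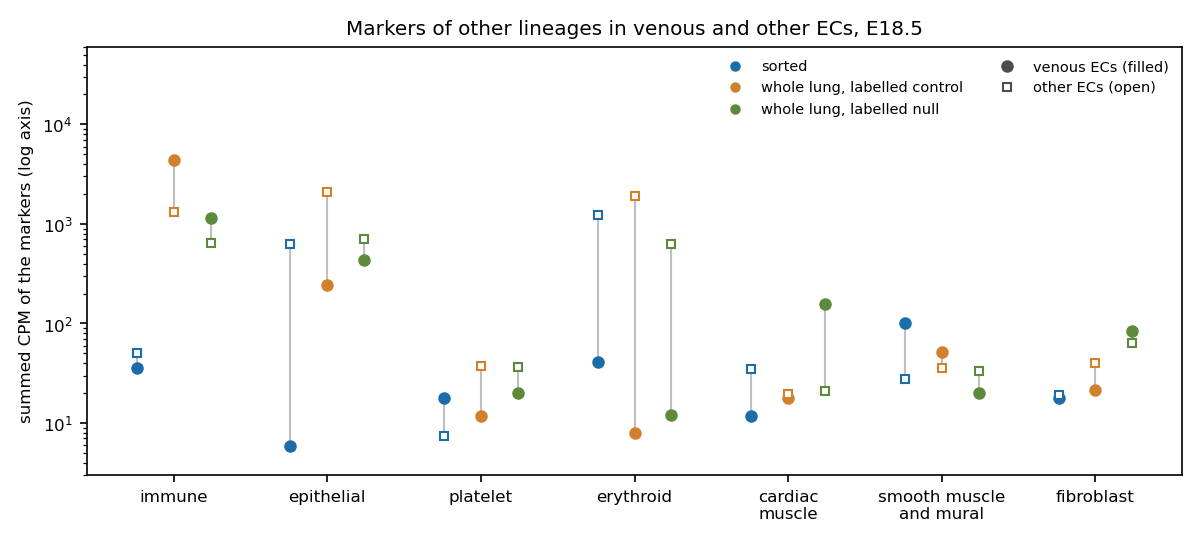
Summed CPM (log axis) of marker lists of 7 other lineages in venous (filled circles) and other ECs (open squares) of each library. Immune markers are higher in venous than in other ECs in both whole-lung libraries, and erythroid markers are lower in venous ECs in all 3.

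The levels of other lineages' markers differed between libraries. The 8 immune markers summed to 35.4 CPM in sorted venous cells, 4360 CPM in those labelled control and 1140 CPM in those labelled null, against 50.8, 1313 and 649 CPM in other ECs. More than 2 of these UMIs were found in 0, 9 and 2 venous cells, and 5, 1 and 2 of the 8 markers were at 0. The 9 cells labelled control held 58 to 419 Lyz2 UMIs each, at 16297 to 26634 UMIs in all. The median of the 45 venous cells there was 8861 UMIs. The 2 cells labelled null held 148 and 75 Lyz2 UMIs, at 17054 and 19711 UMIs. Levels are sums over cells, so such deep cells weigh more in every venous level. The 8 epithelial markers summed to 5.90, 246 and 436 CPM in venous cells against 632, 2110 and 708 CPM, with 0, 9 and 6 venous cells over 2 UMIs. Cardiac muscle sheathes the large pulmonary veins of the mouse, and its markers summed to 11.8, 17.7 and 156 CPM, and 1 cell labelled null held 34 of their UMIs. The 9 smooth muscle and mural markers summed to 100.4, 51.1 and 20.0 CPM in venous cells against 27.6, 35.8 and 33.5 CPM in other ECs, with 3, 3 and 0 venous cells over 2 UMIs and 5, 5 and 7 markers at 0. The 6 erythroid markers summed to 41.3, 7.87 and 12.0 CPM in venous cells against 1237, 1911 and 630 CPM in other ECs. Without the ECs that held over 2 UMIs in sum of immune, epithelial, platelet, cardiac and smooth muscle markers, 14, 25 and 11 venous cells were left. In these, 73 genes were higher and 116 lower than in the other ECs, and 58 of the 70 and 94 of the 110 genes were among them. Car8 was then at 320, 296 and 275 CPM and Ackr3 at 382, 520 and 598 CPM, against 49.6, 102 and 89.9 CPM of Ackr3 in other ECs. Of 62 named genes counted in the comparison with other ECs, Sftpc alone changed direction. The part of these cells in the differences between libraries was not tested beyond these values.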

How the data were processed

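Single-cell RNA was captured with 10x 3′ v3 chemistry. Per the file headers, the deposited UMI counts of the sorted library were written by Cell Ranger 3.0.2 and those of the whole lungs by 3.1.0, and the submitters' processing notes name Cell Ranger 3.1, Seurat 3.2.2 and mm10. A second set of whole-lung matrices, holding expected counts after SoupX removal of free RNA and likewise deposited by the authors, lacks Gm42418. It was rounded here and used only as an alternative. Cells with at least 700 genes and 0.5 to 10% mitochondrial UMIs were kept, and doublets were not removed in the main analysis. Scrublet (scanpy 1.11.5) called 0, 427 and 486 cells in the sorted library and the libraries labelled control and null, of which 0, 3 and 0 were venous. A caller that marks 0 of 9542 sorted cells has not worked there.

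UMIs were summed per library and population and scaled to CPM (Python 3.11.15, numpy 2.4.6, scipy 1.17.1, pandas 2.3.3). Log2 ratios were taken after adding 0.5 CPM, with exact conditional intervals of the raw ratio. Genes with at least 50 CPM in either population of each library (200 CPM between libraries) were counted when past 2-fold. With 1 library per condition there was no test. Comparisons between libraries excluded sex-linked, ribosomal protein, mitochondrial and haemoglobin genes. Named genes were those of fixed lists, the 20 higher and 10 lower genes with the most extreme weakest ratio over the libraries, and the 5 largest in each direction between libraries, where those between the whole-lung libraries had to keep their direction in the adjusted counts of the same cells. Thinning drew 2000 UMIs per cell, 10 times for the shares. Gene positions are from GENCODE M21 (GRCm38). The second Ccl21a entry of the gene table was not used. The scripts were tested on simulated data. The members and lists were chosen with earlier results of these data known.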

Additional observations from a re-analysis of the deposited data

Results flagged for a closer look

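Listed here are 5 genes in which the venous cells stood below the other ECs of the sorted library and above those of both whole-lung libraries. The exact intervals of their log2 ratios, which cover counting error only, left out 0 in each library. Other genes, Klf4 and Junb among them, ran the same way and are not listed. In the 5 genes the contrast thus turned between libraries, and the difference between these contrasts was not tested. Fbln5, an elastic fibre protein, had log2 ratios of -0.43 in the sorted library, 1.40 in the library labelled control and 0.52 in the library labelled null. Slc6a6, a taurine transporter, followed in that order with -0.66, 1.04 and 0.66. Klf2, a flow-responsive factor, had -0.64, 0.34 and 0.48. Eln, elastin, had -0.54, 1.13 and 0.91, but on the authors' adjusted counts of the same cells its ratio was -8.67 in the library labelled control and -1.20 in the library labelled null, so that Eln was then lower in all 3 libraries. The other 4 genes stayed above 0 on those counts. Calcrl, the receptor subunit for adrenomedullin, had -0.77, 0.24 and 0.44. Over the general capillary gate the log2 ratios of Fbln5, Slc6a6, Klf2 and Eln were above 0 in all 3 libraries, with Klf2 at 0.01 in the sorted library. Those of Calcrl turned there too, at -0.29, 0.63 and 1.09. Over the arterial gate Fbln5, Slc6a6 and Calcrl were below 0 in all 3 libraries. Klf2 and Eln were so except in the library labelled null, at 0.01 and 0.07. The levels in venous cells themselves differed less: Fbln5 stood at 650, 564 and 492 CPM there, against 875, 213 and 344 CPM in other ECs, of which the arterial gate held 6157 of 9064, 477 of 1779 and 1296 of 2701 cells. The part of that arterial share in these contrasts was not tested.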

How the results depend on the processing

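For the 62 named genes past 2-fold in all 3 libraries, the mean log2 ratio over the libraries kept its direction under every alternative tried, except for Atf3, at -0.087 (log2) when venous cells were chosen again on SoupX-adjusted counts, and Sftpc, at 0.043 without ECs that held over 2 UMIs of other lineages. Leaving out a library, the 100 CPM minimum and a pseudocount of 5 CPM could not turn the direction, since all 3 libraries shared it. With cells chosen again on SoupX-adjusted counts, 35 of the 62 moved by more than their standard deviation over the libraries. After thinning 25 moved, and 49 of the 70 higher and 72 of the 110 lower genes were kept. Against the general capillary gate 29 moved. In the library labelled control alone, Oat turned to -3.59 on the adjusted counts of the same cells and Hhip and Slit2 had no UMI left. Other named ratios of venous over other ECs were not run under every alternative. The venous share moved to 0.341% in the sorted library with 1 Vwf UMI required. In the library labelled control it moved to 1.75% with the strict rule (3 Vwf and 2 Nr2f2 UMIs) and to 0.447% on SoupX-adjusted counts. Thinned to 2000 UMIs, the shares were 0.0696%, 0.845% and 0.317% in the sorted library and the libraries labelled control and null. A minimum of 100 CPM left 38 higher and 66 lower genes, fewer being tested, and the whole-lung libraries alone gave 132 higher genes, with 1 condition fewer to meet. Under alternatives chosen after seeing the data, 98 and 144 genes were higher and lower without the library labelled control, and 87 and 132 without the library labelled null. Between the whole-lung libraries the 34 genes past 2-fold became 350 on SoupX-adjusted counts with 8 and 15 venous cells, 104 on the adjusted counts of the same cells (chosen after seeing the data), 142 after thinning and 120 at 100 CPM; the cause was not tested. Log2 ratios there turned for Fam183b, to 0 on SoupX-adjusted counts, without ECs holding other lineages' UMIs and without its top cell. Tppp3 turned to 0 on SoupX-adjusted counts and to -4.44 without those ECs. On SoupX-adjusted counts S100a8 turned to 6.77, Lpl to 6.77, Apoe to 10.02, Fcer1g to 8.15 and Lgals3 to 9.04. Without ECs holding other lineages' UMIs Fcer1g turned to 1.77 and Lgals3 to 0.81. No paired analysis was possible because each condition is 1 library. With 19 to 45 venous cells per library, no order between libraries was read from genes with few UMIs. Scrublet gave no alternative for the sorted library.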
